A study of Mus musculus with 28 samples.

Results

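Glutamine and glutamate are interconverted by a small set of enzymes, and 6 of their genes were followed here through corticosterone treatment and recovery: Glul, Glud1, Got1, Got2, Gpt2 and Asns. They were taken by gene symbol from the deposited expression table, and all 6 were found among its 13128 named genes. The cells were DC2, an immortalized line of mouse distal caput epididymal epithelium, grown on collagen-coated plates, and RNA sequencing of polyadenylated RNA gave 28 libraries in 7 groups of 4. At confluence the cells received either ethanol vehicle or corticosterone at 500 ng/ml in ethanol. Vehicle cells were collected on day 0 before treatment and on days 3, 6 and 9. Corticosterone cells were collected on day 3, at the end of treatment, on day 6 after 3 days of recovery and on day 9 after 6 days of recovery, with medium replaced at 72 and 144 h. All groups shared the same single line, medium and serum, and GEO's labels are silent on whether the replicates came from different cultures, so that the p-values measure only the spread between these samples. Values are the authors' normalized log2 CPM, counts scaled for library size by a method not given in the sources used here, so that a difference of 1 is a doubling of the scaled value.

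Glutamine synthetase, encoded by Glul, joins ammonia to glutamate to make glutamine and is a classic glucocorticoid-induced gene in muscle and other tissues. Glutamine can also be broken down to glutamate, which then enters the tricarboxylic acid cycle as 2-oxoglutarate, either through the mitochondrial dehydrogenase encoded by Glud1 or through aminotransferases that pass the amino group to oxaloacetate (Got1 in the cytosol, Got2 in mitochondria) or to pyruvate (Gpt2, mitochondrial). Asparagine synthetase, encoded by Asns, uses glutamine as the nitrogen donor for asparagine and is a standard target of ATF4, the transcription factor of the amino acid and integrated stress response. In the epididymis, glutamate, carnitine and other small organic molecules are known constituents of the luminal fluid that bathes sperm.

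In the mouse annotation of build GRCm38 (GENCODE M21), all 6 are protein-coding genes. Glul lies at chr1:153899944-153909723 on the plus strand, Glud1 at chr14:34310727-34345265 on the plus strand, and Got1 at chr19:43499752-43524605 on the minus strand. Got2 lies at chr8:95864134-95888547 on the minus strand, Gpt2 at chr8:85492576-85527560 on the plus strand, and Asns at chr6:7675169-7693254 on the minus strand. GENCODE M21 names 1 pseudogene after a member, Got2-ps1, and reads from near-identical copies of Got2 may have been divided in counting.

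Because the genes rose together after hormone, the RefSeq promoters of the 6 genes (build GRCm38.p6, 250 bases before to 50 after each start, 1 per gene) were read for 3 motifs on both strands. The palindromic glucocorticoid receptor element (the cores ACA and TGT set 3 bases apart, with a G before and a C after, each 1 base further out) had a match in 0 of 6, against 0.475% of 32851 RefSeq mouse promoters. The E-box CACGTG also had a match in 0 of 6, against 7.15% of promoters. The composite C/EBP-ATF element TGATGNAA, the kind of site that ATF4 binds, had a match in 2 of 6, Asns and Got1, against 3.97% of promoters. The matches, in capitals, are shown in 30 bases of each promoter strand, for Asns at chr6:7693214-7693243 and for Got1 at chr19:43524689-43524718, both on the minus strand. The match began 23 bases before the RefSeq start of Asns and 102 bases before that of Got1, where it reads on the opposite strand as TGATGCAA. The 150 bases before the start of Glul, chr1:153899779-153899928 on the plus strand, are shown as the promoter of the most strongly changed member and hold none of the 3 motifs.
Asns: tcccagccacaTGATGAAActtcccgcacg
Got1: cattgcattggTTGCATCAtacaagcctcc
Glul: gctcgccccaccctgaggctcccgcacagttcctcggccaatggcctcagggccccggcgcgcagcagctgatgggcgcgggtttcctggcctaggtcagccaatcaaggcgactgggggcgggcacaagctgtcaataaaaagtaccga
A match in these letters is a description of the sequence, and binding was not measured here.

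The hormone response and the state of the cultures were read from other genes first. Fkbp5, a glucocorticoid receptor co-chaperone and standard target, was higher than in vehicle by 3.05, 2.61 and 0.74 log2 units on days 3, 6 and 9. Values were given for 7 of 9 epithelial markers, with a summed level of 58.6 to 86.3 CPM across all libraries. Krt18 (group means 13.1 to 39 CPM) and Cldn4 (22.2 to 43) made up most of it, while Epcam was at only 0.452 to 2.82. Single markers moved within that sum: 1 was higher and 2 lower with corticosterone on day 3, and 3 higher and 2 lower on day 6, when Cdh1 averaged 13.2 CPM in vehicle and 4.31 in corticosterone and Krt7 1.12 and 4.77. Values were also given for 4 of 11 epididymal markers, Pax2 and Pax8 among them. The epididymal secretory markers on the list, such as Lcn8, were not analysed here, so the segment named in the label was not checked by them. On day 3 the summed CPM of 5 of 7 listed fibroblast markers was 60.9 to 65.4 in vehicle and 113 to 134 in corticosterone libraries. Of these 5 genes 2 were higher and 3 lower (median -0.60 log2 units), and the sum followed Dcn, at a mean of 13.2 and 89.9 CPM, while Col1a1 was at 8.21 and 3.21 and Pdgfrb at 39.7 and 26.1. The summed CPM in vehicle and corticosterone libraries was, for 2 of 4 endothelial markers, 1.43 to 2.6 and 7.15 to 9.71, and, for 2 of 5 smooth muscle markers, 1.04 to 2.61 and 1.42 to 3.73. Of the 2 endothelial genes 1 was higher and 1 not called, and the sum followed Kdr, at a mean of 0.154 and 6.11 CPM. Of 6 immune markers only Cd68 had values, 27.6 to 28.8 CPM in vehicle and 7.59 to 11.1 in corticosterone libraries on day 3. On day 6 the fibroblast sums overlapped (69.5 to 73.9 in vehicle and 68.1 to 75.4 in corticosterone libraries), with again 2 genes higher and 3 lower (median -1.20). The endothelial sums were 1.69 to 2.24 and 5.82 to 12.5, again with 1 gene higher and 1 not called and with Kdr at a mean of 0.203 and 8.69 CPM. Cd68 was at 48.7 to 57.1 and 10.0 to 13.3 CPM. The part of these differences in the results below was not tested, and a change in the share of some cells cannot be told apart from a change in RNA per cell. In the corticosterone day 6 group, replicate 6 stood apart from the other 3 libraries, with Fkbp5 at 8.32 against 9.13 to 9.19 log2 CPM, and the day 6 differences from vehicle of the 6 genes are given with and without it. Over all genes the library farthest from its group was corticosterone day 3 replicate 4, with a root mean square deviation of 0.39 log2 units against 0.187 to 0.275 in the others. For the gene lists, counts on day 3 that change without it are given too.

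To determine whether hormone exposure changed these enzymes, corticosterone and vehicle libraries were compared at each day. The 6 genes were chosen with earlier results of these data known, so counts and medians over them are descriptions and do not test the set. All 6 genes rose with corticosterone on day 3, at an adjusted p under 0.05 in limma over all genes. Of all genes tested 23.3% rose by this rule, 25.6% fell and 49.0% changed in either direction. All 6 also rose on day 6, when 22.9% of all genes rose, 24.3% fell and 47.2% changed. On day 9 the rise passed the test for 5 of 6, when 14.1% of all genes rose, 14.4% fell and 28.5% changed. The median difference over the 6 genes was 0.64, 0.76 and 0.32 log2 units on days 3, 6 and 9, against -0.01, 0 and 0 over all genes. On days 3 and 6 no corticosterone library overlapped the vehicle libraries in any of the 6 genes, a separation upward that 18.8% and 23.8% of all genes showed on those days. On day 9 the separation held for 5 of 6, Got1 being the one that overlapped, against 16.6% of all genes.

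**Figure D1:**
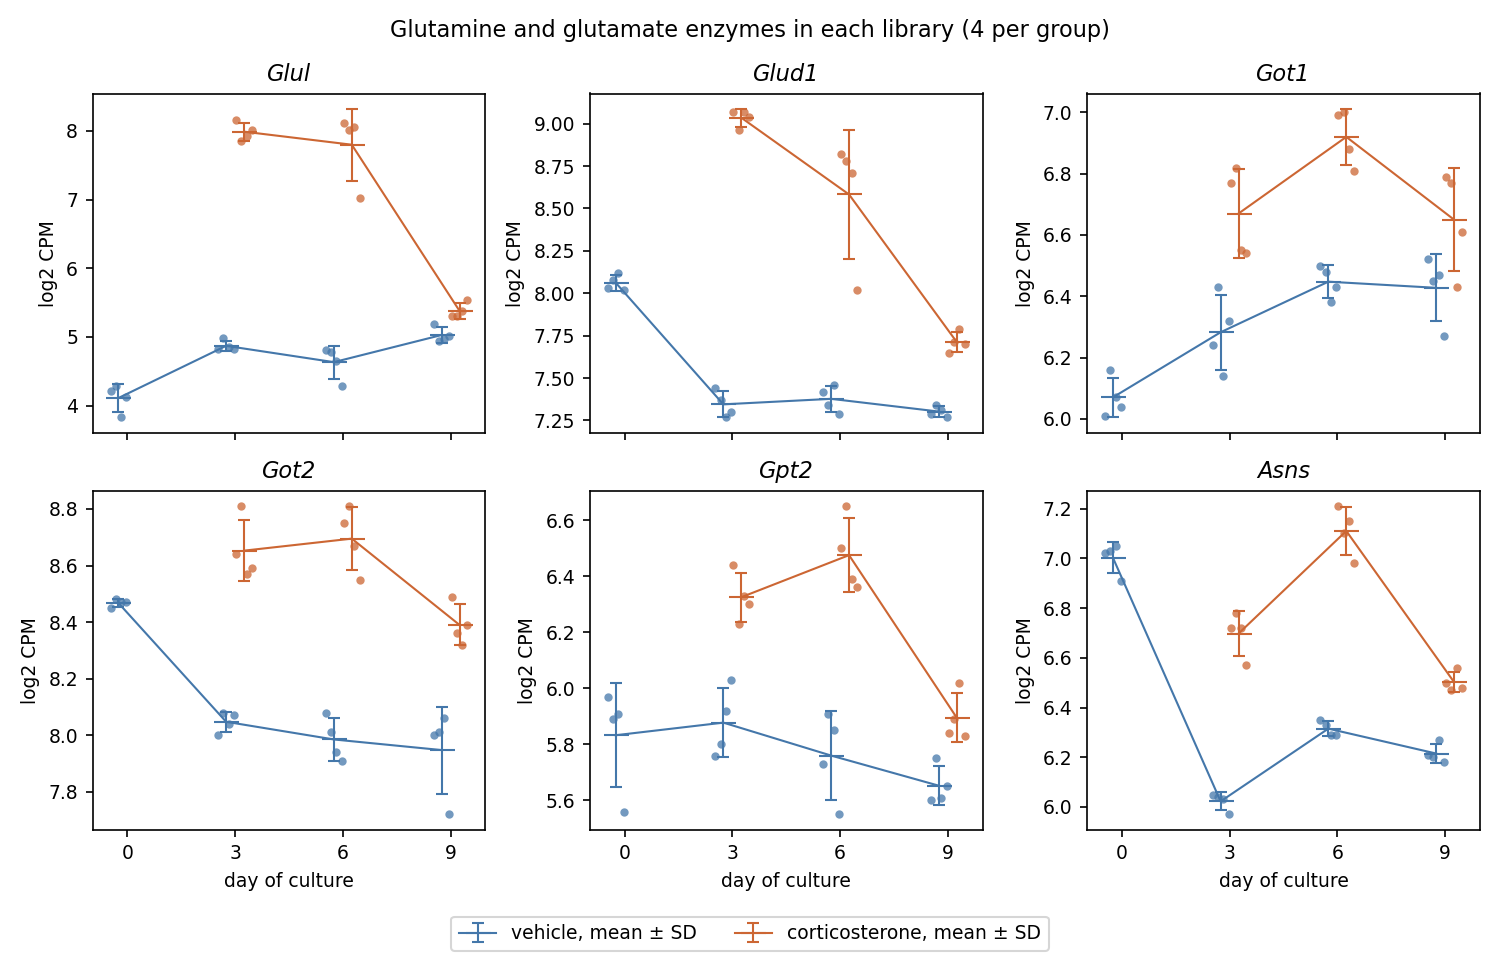
Each panel plots log2 CPM of 1 gene against day (0, 3, 6 and 9), with a point per library, and the group mean ± SD (n = 4) as a bar joined by lines, blue for vehicle and orange for corticosterone. The corticosterone points lie above the vehicle points of the same day in every panel on days 3 and 6, and 1 day 6 library sits low in Glul (7.02) and Glud1 (8.02).

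Glul, the glutamine-forming enzyme, showed the largest rise of the 6. On day 3 its level was 4.83, 4.98, 4.85 and 4.82 log2 CPM in the vehicle libraries and 8.16, 7.85, 7.93 and 8.02 in the corticosterone libraries. All treated libraries lay far above all vehicle libraries. As CPM, the group means were 29.3 ± 1.51 and 255 ± 24.0 (SD, n = 4 each). The difference was 3.12 ± 0.16 log2 units (SE; 95% interval 2.79 to 3.45), or 8.7-fold, with an adjusted p of 1.59e-14 in limma. Only 0.51% of the genes tested had a larger rise on that day.

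On day 6, after 3 days without added hormone, Glul was still high. Its values were 4.81, 4.78, 4.65 and 4.29 log2 CPM in vehicle libraries and 8.11, 8.01, 8.06 and 7.02 in corticosterone libraries. The last of these, replicate 6, lay about 1 unit under the other 3 treated libraries and still far above all vehicle libraries. The difference was 3.17 ± 0.16 (8.98-fold; adjusted p = 9.36e-15, limma), and 3.43 ± 0.11 without replicate 6 of the corticosterone group. From day 3 to day 6 the hormone's effect on Glul differed by 0.05, which did not pass the test (adjusted p = 0.935, limma). The interval of this difference, -0.42 to 0.51, leaves room for a change in either direction. Without replicate 6 of the corticosterone day 6 group that difference was 0.31 ± 0.15 (adjusted p = 0.224).

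By day 9 most of the Glul difference was gone. Vehicle libraries were at 5.19, 4.94, 4.97 and 5.01 log2 CPM and corticosterone libraries at 5.30, 5.30, 5.38 and 5.54. The groups did not overlap, but the difference of 0.35 ± 0.16 (interval 0.02 to 0.68) did not pass the test (adjusted p = 0.103, limma). With the spread estimated from these 8 libraries alone it did pass (adjusted p = 0.0048), as it did when libraries were weighted by their quality (0.33, adjusted p = 0.0456). The hormone's effect on day 9 differed from that on day 3 by -2.77 ± 0.23 (adjusted p = 3.71e-10) and from that on day 6 by -2.81 ± 0.23 (adjusted p = 5.38e-10), both in limma. Effects on different days rest on different vehicle libraries, and those vehicle levels moved too, as given below for the vehicle cultures.

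Glud1 encodes glutamate dehydrogenase, which releases ammonia from glutamate in mitochondria, and it had the second largest rise. On day 3 the vehicle libraries were at 7.44, 7.37, 7.27 and 7.30 log2 CPM and the corticosterone libraries at 9.07, 8.96, 9.07 and 9.04. The treated libraries lay close together, well above vehicle. The difference was 1.69 ± 0.10 (3.23-fold; adjusted p = 3.62e-13, limma), a rise that 1.58% of genes exceeded. On day 6 the vehicle libraries were at 7.42, 7.34, 7.46 and 7.29 and the corticosterone libraries at 8.82, 8.78, 8.71 and 8.02, with replicate 6 again the low one. The difference was 1.20 ± 0.10 (2.3-fold; adjusted p = 2.07e-10), and 1.39 ± 0.05 without replicate 6.

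Glud1 was the only one of the 6 whose difference in hormone effect between days 6 and 3 passed the test, at -0.49 ± 0.14 (adjusted p = 0.0324, limma). Of all genes 9.11% passed it, 4.90% with the lower effect on day 6. That value was -0.30 ± 0.07 (adjusted p = 0.004) without replicate 6 of the corticosterone day 6 group. It did not pass (-0.46 to -0.48) without any 1 of vehicle day 3 replicates 5 and 6, vehicle day 6 replicates 3 and 5, or corticosterone day 3 replicates 1 and 5. On day 9 Glud1 was at 7.29, 7.34, 7.31 and 7.27 in vehicle and 7.65, 7.71, 7.79 and 7.70 in corticosterone libraries, again with no overlap. The remaining difference of 0.41 ± 0.10 (1.33-fold) passed the test (adjusted p = 0.00333). From day 3 to day 9 the effect on Glud1 fell by 1.28 ± 0.14 (adjusted p = 9.11e-08), and from day 6 to day 9 by 0.79 ± 0.14 (adjusted p = 0.000115).

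The aspartate aminotransferases Got1 and Got2, which move amino groups between glutamate and oxaloacetate on the cytosolic and mitochondrial sides of the malate-aspartate shuttle, rose by smaller amounts. Got2 was at 8.0, 8.08, 8.04 and 8.07 log2 CPM in vehicle and 8.64, 8.81, 8.57 and 8.59 in corticosterone libraries on day 3. The difference was 0.61 ± 0.06 (1.52-fold; adjusted p = 1.23e-08, limma), several times the spread within either group. On day 6 Got2 was at 8.08, 8.01, 7.94 and 7.91 in vehicle and 8.75, 8.81, 8.67 and 8.55 in corticosterone libraries, a difference of 0.71 ± 0.06 (adjusted p = 6.21e-10), or 0.76 ± 0.07 without replicate 6. The mitochondrial enzyme kept a rise on day 9, with vehicle at 8.0, 8.01, 8.06 and 7.72, corticosterone at 8.49, 8.36, 8.32 and 8.39, and a difference of 0.44 ± 0.06 (1.36-fold; adjusted p = 7.48e-06). Without vehicle day 9 replicate 6, the low one, it was 0.37 ± 0.06.

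Got1, the cytosolic enzyme, ranged from 6.14 to 6.43 log2 CPM in vehicle and from 6.54 to 6.82 in corticosterone libraries on day 3, a rise of 0.38 ± 0.08 (1.31-fold; adjusted p = 0.000212, limma). Its ranges on day 6 were 6.38 to 6.5 and 6.81 to 7.0, a rise of 0.47 ± 0.08 (adjusted p = 1.68e-05), or 0.51 ± 0.08 without replicate 6. On both days the groups were separate. On day 9 they overlapped, with 6.27 to 6.52 in vehicle and 6.43 to 6.79 in corticosterone libraries. The day 9 rise of 0.22 ± 0.08 passed the test narrowly (adjusted p = 0.0352). It did not with the spread taken from these 8 libraries alone (adjusted p = 0.0701), nor without any 1 of vehicle replicates 4 (0.23) and 6 (0.17) or corticosterone replicates 3 (0.17), 4 (0.18) and 6 (0.23).

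Gpt2, the mitochondrial alanine aminotransferase, makes alanine and 2-oxoglutarate from pyruvate and glutamate. It ranged from 5.76 to 6.03 log2 CPM in vehicle and from 6.23 to 6.44 in corticosterone libraries on day 3, a rise of 0.45 ± 0.08 (1.36-fold; adjusted p = 9.02e-05, limma). On day 6 the ranges were 5.55 to 5.91 and 6.36 to 6.65, a rise of 0.72 ± 0.08 (1.64-fold; adjusted p = 8.37e-08), or 0.76 ± 0.09 without replicate 6. The difference between the effects on days 6 and 3, 0.27 ± 0.12, did not pass the test (adjusted p = 0.178), nor did 0.31 ± 0.12 without replicate 6 (adjusted p = 0.138). On day 9 the groups lay close together without overlap, at 5.60 to 5.75 and 5.83 to 6.02, and the rise of 0.24 ± 0.08 (adjusted p = 0.0342) did not pass without any 1 of vehicle replicates 3 (0.22), 5 (0.23) and 6 (0.24) or corticosterone replicates 4 (0.24) and 5 (0.20). The cytosolic paralog Gpt did not pass the test on any of the 3 days, with differences of 0.18 ± 0.09, -0.06 ± 0.09 and -0.06 ± 0.09.

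Asns, which makes asparagine from aspartate with glutamine as nitrogen donor, had narrow groups and a clear rise. On day 3 it was at 6.05, 6.04, 6.03 and 5.97 log2 CPM in vehicle and 6.72, 6.78, 6.72 and 6.57 in corticosterone libraries. On day 6 it was at 6.35, 6.33, 6.29 and 6.29 in vehicle and 7.21, 7.10, 7.15 and 6.98 in corticosterone libraries. The rises were 0.67 ± 0.05 (1.6-fold; adjusted p = 8.74e-12) and 0.80 ± 0.05 (1.74-fold; adjusted p = 3.02e-13), both in limma, and the second was 0.84 ± 0.05 without replicate 6 of the corticosterone group. Treated and vehicle libraries were thus separated by several times the spread within groups. On day 9 vehicle libraries were at 6.21, 6.20, 6.27 and 6.18 and corticosterone libraries at 6.5, 6.47, 6.56 and 6.48, a rise of 0.29 ± 0.05 (adjusted p = 5.69e-05).

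**Figure D2:**
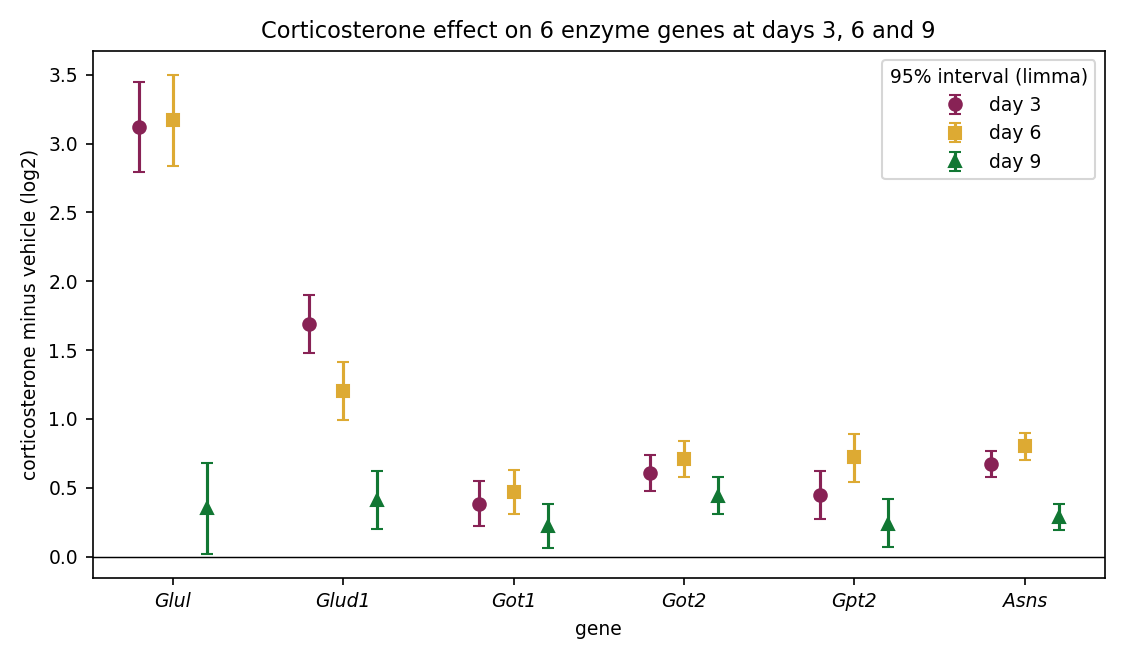
Points give the corticosterone minus vehicle difference in log2 CPM of the 6 genes at days 3, 6 and 9, with 95% intervals from the limma fit (n = 4 libraries in each group). Glul stands at 3.12 and 3.17 on days 3 and 6 and drops to 0.35 on day 9, Glud1 falls in steps from 1.69 to 1.20 and 0.41, and the other 4 genes lie between 0.22 and 0.80.

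The retreat of the response by day 9 was tested as the difference between effects. Between days 3 and 9 the effect was smaller for Glul, Glud1 and Asns (-0.39 ± 0.07, adjusted p = 5.29e-05), that is for 3 of 6 genes, when the effect was lower in 18.5% of all genes and differed in 38.3%. For Got1 (-0.16, interval -0.39 to 0.07), Got2 (-0.16, -0.35 to 0.02) and Gpt2 (-0.21, -0.45 to 0.04) the change between days 3 and 9 did not pass the test. Between days 6 and 9 it was smaller for 5 of 6 genes, against 14.9% of all genes (30.9% in either direction), with Asns at -0.51 ± 0.07 (adjusted p = 1.77e-06), Gpt2 at -0.48 ± 0.12 (adjusted p = 0.00323) and Got2 at -0.27 ± 0.09 (adjusted p = 0.0263). Without replicate 6 of the corticosterone day 6 group the changes from day 6 to day 9 were -3.07 ± 0.15 for Glul, -0.98 ± 0.07 for Glud1, -0.55 ± 0.06 for Asns, -0.51 ± 0.12 for Gpt2, -0.32 ± 0.09 for Got2 and -0.29 ± 0.11 for Got1, and the same 5 passed. The Got2 value did not pass without any 1 of 8 libraries (-0.23 to -0.25): vehicle day 6 replicates 5 and 6, vehicle day 9 replicates 3, 4 and 5, corticosterone day 6 replicates 1 and 3, and corticosterone day 9 replicate 5. For Got2 the change between days 3 and 9 passed without vehicle day 9 replicate 6 (-0.24, adjusted p = 0.0204). Got1, at -0.25 ± 0.11, did not pass (adjusted p = 0.0949), but did with the replicate number as a block (adjusted p = 0.0372) and without vehicle day 9 replicate 6 (-0.30, adjusted p = 0.043).

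The vehicle cultures themselves changed after day 0, and the 6 genes did so in different directions. Day 0 libraries had no ethanol and later vehicle libraries had 0.1%, and medium was replaced at 72 and 144 h. Time in culture, ethanol and medium change therefore cannot be told apart here. Against day 0, 2 genes were higher, 3 lower and 1 not called in vehicle on each of days 3, 6 and 9, while 69.2%, 70.1% and 70.4% of all genes changed in either direction (higher in 36.5%, 36.4% and 35.9%, lower in 32.7%, 33.7% and 34.6%). These comparisons share the day 0 libraries with each other and the later vehicle libraries with the hormone comparisons above. Asns fell most: it was at 7.02, 7.03, 7.05 and 6.91 log2 CPM on day 0, and the fall to day 3 was -0.98 ± 0.05 (0.506-fold; adjusted p = 1.08e-15, limma). Glud1 was at 8.03, 8.08, 8.12 and 8.02 on day 0 and fell by 0.72 ± 0.10 (adjusted p = 7.34e-07) to day 3, and Got2, at 8.45, 8.48, 8.47 and 8.47 on day 0, fell by 0.42 ± 0.06 (adjusted p = 1.88e-06). All vehicle libraries of days 3, 6 and 9 lay under all day 0 libraries in these 3 genes, a separation downward that 32.1%, 32.9% and 33.0% of all genes showed on the 3 days.

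Glul moved the other way in vehicle, from 4.21, 4.28, 3.83 and 4.12 log2 CPM on day 0 by 0.76 ± 0.16 to day 3 (adjusted p = 0.000156, limma) and by 0.92 ± 0.16 to day 9 (adjusted p = 1.49e-05). Its later vehicle libraries lay above all day 0 libraries, as in 34.6%, 34.0% and 33.6% of all genes on days 3, 6 and 9. Got1 was at 6.01 to 6.16 on day 0 and was higher by 0.22 ± 0.08 on day 3 (adjusted p = 0.0169), where the ranges overlapped and the call was lost without day 3 replicate 4 (0.17, adjusted p = 0.0763), and by 0.38 ± 0.08 on day 6 (adjusted p = 0.000121), where they did not. Gpt2 did not pass the test on any day in vehicle, with differences of 0.05, -0.07 and -0.18 (interval on day 9 -0.35 to 0). Its day 9 fall passed without day 0 replicate 6 (-0.27, adjusted p = 0.00497) or day 9 replicate 4 (-0.21, adjusted p = 0.0452).

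Set against day 0 in place of the vehicle of the same day, the hormone groups gave a different picture for each gene. Asns in corticosterone libraries was 0.31 under the day 0 mean on day 3, with every library lower, 0.11 above it on day 6 with overlapping ranges, and 0.50 under it on day 9. Got2 in corticosterone libraries was 0.18 and 0.23 above day 0 on days 3 and 6 and overlapped it on day 9 (-0.08). Glud1 was 0.97 above day 0 on day 3, 0.52 above with overlap on day 6 and 0.35 under it on day 9. Glul was above day 0 in every later group, by 3.88, 3.69 and 1.27 in the corticosterone groups. These are differences of group means without a test of their own.

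**Figure D3:**
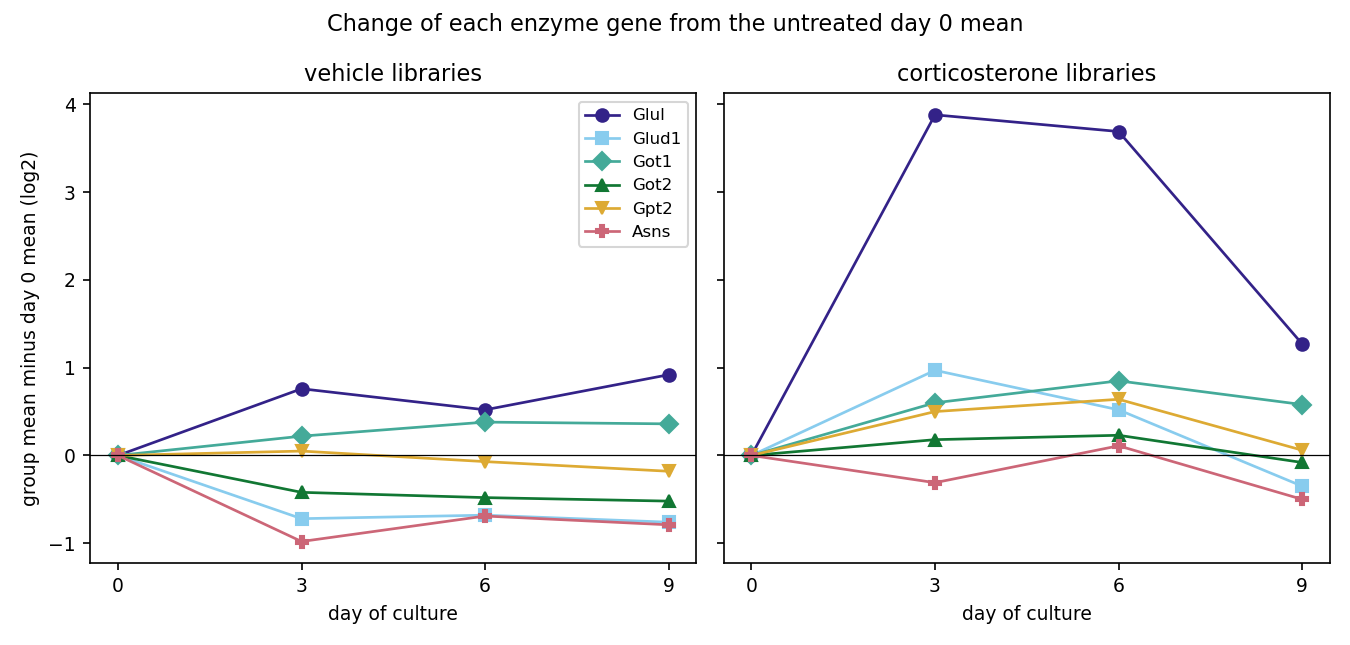
The group mean log2 CPM of each gene on days 3, 6 and 9 is plotted minus its mean on day 0, for vehicle and for corticosterone groups (n = 4 libraries per group). In vehicle, Asns, Glud1 and Got2 lie below 0 and Glul and Got1 above it, whereas in corticosterone on day 3 Asns (-0.31) is the only one of the 6 below its day 0 level.

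The order of the 7 groups also differed by gene. Glul ran from vehicle day 0 (4.11 ± 0.19 log2 CPM, SD, n = 4) up to corticosterone day 3 (7.99 ± 0.13), and corticosterone days 3 and 6 (7.80 ± 0.52) overlapped. Glud1 ran from vehicle day 9 (7.30 ± 0.03) through corticosterone day 9 (7.71 ± 0.06) and vehicle day 0 (8.06 ± 0.05) to corticosterone day 3 (9.03 ± 0.05), with the 3 later vehicle groups overlapping each other. For Got1 neighbouring groups overlapped throughout, from vehicle day 0 (6.07 ± 0.06) to corticosterone day 6 (6.92 ± 0.09). Got2 and Gpt2 were both lowest in vehicle day 9 (7.95 ± 0.15 and 5.65 ± 0.07) and highest in corticosterone day 6 (8.70 ± 0.11 and 6.48 ± 0.13). Asns was lowest in vehicle day 3 (6.02 ± 0.04) and highest in corticosterone day 6 (7.11 ± 0.10), which overlapped vehicle day 0 (7.0 ± 0.06).

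Levels can be compared between genes only per length, and the order then depended on the transcript length used. With the median length of a gene's protein-coding transcripts in GENCODE M21, 681 bases for Glul, the level of Glul was 375 ± 35.3 CPM per kb in corticosterone day 3 (SD, n = 4), the highest of the 6, above Glud1 at 274 ± 9.81 and Got2 at 160 ± 12.3. With the longest transcript, 2792 bases for Glul, it was 91.5 ± 8.6 CPM per kb, below Got2 at 160 and Glud1 at 155 ± 5.53. In vehicle day 3 Glul was at 43.0 ± 2.22 or 10.5 ± 0.542 CPM per kb by these lengths, next after Got2, Glud1 and Asns by the first and lowest of the 6 by the second. Got2 was highest in vehicle day 3 by both lengths, at 104 ± 2.49 CPM per kb, and Gpt2 was last or next to last in all 7 groups. The median lengths of Glul and of Asns (908 bases, against 2016 for its longest transcript) are short because partial transcript models are counted. The first place of Glul rests on such a length, so the order by the longest transcript is the safer one. Which transcripts these cells used was not measured.

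The genes with the most similar profiles over the 28 libraries, by Pearson's r of log2 CPM, differed among the 6. All libraries share the day and treatment structure, so these values are descriptions. Glul was most like Klf13 (0.991), Fkbp5 (0.987) and Gsn (0.982). Glud1 was most like Aif1l (0.982), Kitl (0.971) and Efemp1 (0.967), and Got1 most like Asrgl1 (0.953), the mitochondrially encoded mt-Cytb (0.922) and Cnksr3 (0.913). Got2 was most like Mdh2 (0.979), the mitochondrial malate dehydrogenase, then the phosphate carrier gene Slc25a3 (0.951) and the ATP synthase gene Atp5a1 (0.951). Gpt2 was most like Thsd7a (0.932), Pappa (0.929) and Prkd1 (0.928), and Asns most like Tent5b (0.953), Rrs1 (0.947) and the glycyl-tRNA synthetase gene Gars (0.946). Among the 6 themselves, r was highest for Glud1 with Got2 (0.893) and Glul with Gpt2 (0.869), and lowest for Got1 with Asns (0.295).

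The other genes of the pathway did not all follow. The lists too were chosen with earlier results of these data known, so their counts are descriptions. For each list below, the shares over all genes were 23.3%, 22.9% and 14.1% risen on days 3, 6 and 9. The shares fallen were 25.6%, 24.3% and 14.4%. A list of glutamine use and glutamate formation had 13 measured genes, and it also counts Glul, which makes glutamine. Of these genes 4 rose and 6 fell on day 3, 4 rose and 5 fell on day 6, and 4 rose and 1 fell on day 9, with medians of -0.09, 0.03 and 0.13. Without replicate 4 of the corticosterone day 3 group 4 rose and 5 fell on day 3. The 2 largest rises on day 3 were Glul and Asns themselves. Gls2, which encodes an enzyme that breaks glutamine down to glutamate, fell: it was at 3.21, 3.36, 3.53 and 3.69 log2 CPM in vehicle and 2.39, 2.48, 2.47 and 2.73 in corticosterone libraries on day 6. The falls were -0.48 ± 0.17 (adjusted p = 0.0186, limma), -0.93 ± 0.17 (adjusted p = 3.9e-05) and -1.03 ± 0.17 (adjusted p = 3.16e-05) on days 3, 6 and 9, and vehicle Gls2 itself went from 1.21 to 2.08 log2 CPM on day 0 up to 3.91 to 4.10 on day 9. Thus Glul rose on days 3 and 6 while Gls2 fell.

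Genes that link glutamate with proline, ornithine, GABA and glutathione, by making or breaking them down, mostly rose during and just after treatment. Of these, 7 of 11 rose and 0 fell on day 3, 9 rose and 0 fell on day 6, and 4 rose and 2 fell on day 9 (medians 0.39, 0.36 and 0.16). Without replicate 4 of the corticosterone day 3 group the day 3 counts were 8 and 2. Prodh, proline dehydrogenase, which breaks proline down, had the largest rise. It was at 2.53, 2.60, 2.70 and 2.48 log2 CPM in vehicle and 6.22, 6.38, 6.11 and 6.26 in corticosterone libraries on day 3. The difference was 3.66 ± 0.15 (adjusted p = 2.52e-16, limma) on day 3, 2.66 ± 0.15 on day 6 (adjusted p = 1.11e-13), when replicate 6 was at 4.92 and the other 3 treated libraries at 5.92 to 6.05, and 0.34 ± 0.15 on day 9 (adjusted p = 0.0975). Gclc, the catalytic subunit of the first enzyme of glutathione synthesis, rose by 1.46 ± 0.06 (adjusted p = 5.04e-17) and 1.41 ± 0.06 (adjusted p = 9.34e-17) on days 3 and 6, and its day 9 interval was -0.12 to 0.11. Aldh18a1, which starts proline synthesis from glutamate, rose by 0.46 ± 0.07 (adjusted p = 2.93e-06) and 0.36 ± 0.07 (adjusted p = 7.45e-05) and then fell by 0.20 ± 0.07 on day 9 (adjusted p = 0.0297).

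Of 12 measured aminotransferases and the dehydrogenase, which include Glud1, Got1, Got2 and Gpt2, 8 rose and 1 fell on day 3, 10 rose and 1 fell on day 6, and 9 rose and 0 fell on day 9 (medians 0.52, 0.59 and 0.24); without replicate 4 of the corticosterone day 3 group 8 rose and 2 fell on day 3. Abat, which breaks down GABA, rose by 1.33 ± 0.39 on day 3 (adjusted p = 0.0065, limma) from a low and scattered level. In the malate-aspartate shuttle, which carries reducing equivalents into mitochondria, 5 of 7 genes rose and 1 fell on days 3 and 6, and 6 rose and 0 fell on day 9 (medians 0.48, 0.55 and 0.29). Mdh2 rose by 0.67 ± 0.07 (adjusted p = 5.49e-09), 0.64 ± 0.07 (1.14e-08) and 0.49 ± 0.07 (3.98e-06), and the cytosolic Mdh1 by 0.48 ± 0.05 (1.48e-09), 0.55 ± 0.05 (1.24e-10) and 0.33 ± 0.05 (3.05e-06). The 2 aspartate-glutamate carriers went opposite ways. Slc25a12 rose by 0.49 ± 0.09 (adjusted p = 6.37e-05) and 0.61 ± 0.09 (3.15e-06) on days 3 and 6, while Slc25a13 fell by 0.48 ± 0.07 (1.68e-06) and 0.44 ± 0.07 (4.84e-06) and was at 0.00 ± 0.07 on day 9.

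**Figure D4:**
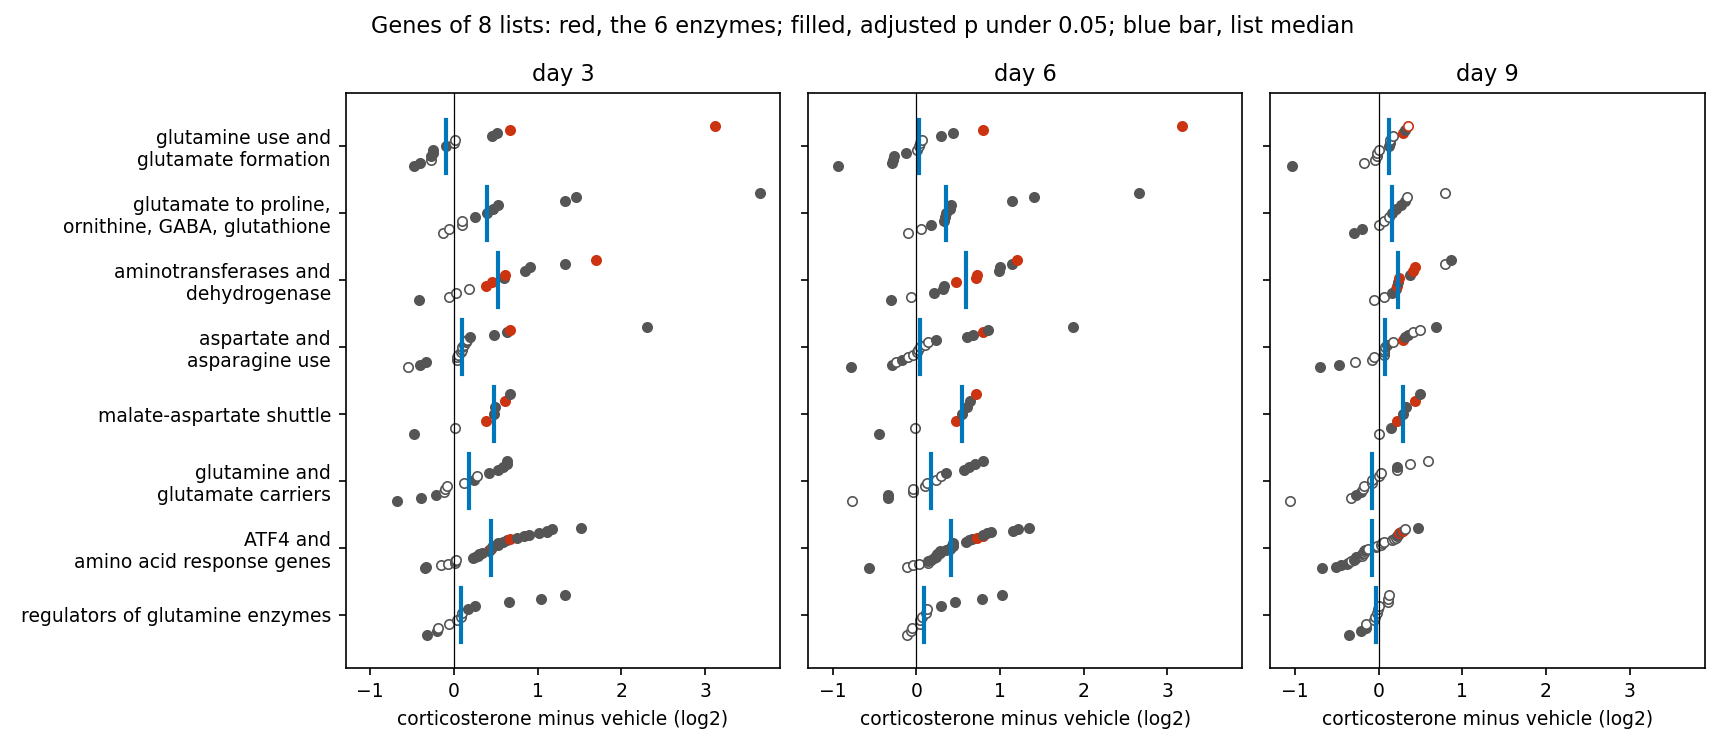
Each point is 1 measured gene of a pathway list, placed by its corticosterone minus vehicle difference in log2 CPM on days 3, 6 and 9 (n = 4 libraries per group), filled where the adjusted p in limma is under 0.05, red for the 6 enzyme genes, with a blue bar at the list median. Most points of the ATF4 and amino acid response list lie to the right on days 3 and 6 (medians 0.44 and 0.41) and on both sides of 0 on day 9 (median -0.08), while the aminotransferase list has no filled point to the left on day 9.

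Among 17 measured genes of aspartate and asparagine use, 6 rose and 2 fell on day 3, 6 rose and 3 fell on day 6, and 5 rose and 2 fell on day 9 (medians 0.10, 0.04 and 0.08). In either direction 8, 9 and 7 of the 17 changed on these days, against 49.0%, 47.2% and 28.5% of all genes. The largest rise of the list on day 3 was that of Aspg, an asparaginase, at 2.30 ± 0.40 (adjusted p = 3.3e-05, limma), with 1.87 ± 0.40 on day 6 (adjusted p = 0.000371) and -0.28 ± 0.40 on day 9 (adjusted p = 0.653). So a gene for asparagine breakdown and the gene for its synthesis were both higher on days 3 and 6. The level of Aspg was low, with means of 2.25 and 2.98 CPM in vehicle and 10.6 and 10.8 in corticosterone libraries on those days. Of 14 measured glutamine and glutamate carriers, 6 rose and 3 fell on day 3, 5 rose and 2 fell on day 6, and 1 rose and 2 fell on day 9 (medians 0.18, 0.18 and -0.08). With replicate 4 of the corticosterone day 3 group left out, 5 carriers rose and 3 fell on day 3. Slc1a5, the main sodium-dependent glutamine importer, rose by 0.63 ± 0.07 (adjusted p = 2.6e-08) and 0.70 ± 0.07 (3.64e-09) and then fell by 0.27 ± 0.07 on day 9 (0.00422), and its relative Slc1a4 rose by 0.63 ± 0.06 on day 3 (6.65e-10). Another glutamine importer, Slc38a1, fell by 0.68 ± 0.10 on day 3 (1.54e-06), Slc38a2 fell by 0.22 ± 0.04 (3.4e-05), and the mitochondrial glutamate carrier gene Slc25a22 rose by 0.24 ± 0.10 (0.0488) on that day.

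Asns belongs to the target genes of ATF4. A wider list of ATF4 and amino acid response genes also holds Atf4 itself, Eif2ak3, Eif2ak4 and the members Asns and Gpt2, so not all are ATF4 targets. Of its 30 measured genes 23 rose and 2 fell on day 3, 24 rose and 1 fell on day 6, and 6 rose and 10 fell on day 9 (medians 0.44, 0.41 and -0.08). Without replicate 4 of the corticosterone day 3 group 20 rose on day 3. Atf4 mRNA rose by 0.42 ± 0.05 (adjusted p = 2.03e-07, limma) and 0.18 ± 0.05 (0.00471) and fell by 0.16 ± 0.05 on day 9 (0.0204). Mthfd2, of mitochondrial folate metabolism, rose by 1.52 ± 0.11 (1.41e-11), and Chac1, which degrades glutathione, by 1.17 ± 0.10 (1.89e-10) on day 3. Trib3, an inhibitor in the same response, rose by 0.75 ± 0.07 (1.1e-09) on day 3 and fell by 0.45 ± 0.07 (1.74e-05) on day 9, and Ddit3, its stress-linked transcription factor, was at 0.01 ± 0.07 and 0.03 ± 0.07 on days 3 and 6 (0.935 and 0.746) and fell by 0.27 ± 0.07 on day 9 (0.00701). On day 9 Atf4, Trib3 and Ddit3 were thus lower with corticosterone while Asns was higher by 0.29 ± 0.05.

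The list also holds serine synthesis genes. Phgdh rose by 0.23 ± 0.08 (adjusted p = 0.0158, limma), 0.44 ± 0.08 (3.53e-05) and 0.27 ± 0.08 (0.0102) on days 3, 6 and 9. Psat1, the glutamate-dependent aminotransferase of the pathway, was at 0.02 ± 0.05 on day 3 (0.768) and rose by 0.21 ± 0.05 (0.00149) and 0.23 ± 0.05 (0.00159) on days 6 and 9. Psph, of the last step and named after its values were seen, rose by 0.29 ± 0.11 (0.0265) and 0.44 ± 0.11 (0.00141) and was at 0.21 ± 0.11 on day 9 (0.152). Whether the course of these 3 genes differed from that of Asns was not tested.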

How the data were processed

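RNA of 28 DC2 libraries (TruSeq Stranded mRNA, 500 ng RNA each, per the labels' protocols) was analysed from the deposited table of normalized log2 CPM. The authors' tools, per the submitters' processing notes, were kallisto, edgeR 3.40.1 and limma 3.54.0 with mm10. Their order, annotation, normalization method and prior count are not given in the sources used here. The log2 CPM values, back-transformed, sum to 949631 to 1059931 per library. Read depth is therefore unknown, and no counting interval can be given. The 1 entry without a symbol (0.0267 to 0.0698% of CPM) was left out. limma 3.58.1 (R 4.3.3) was fitted to 7 group means over all 28 libraries (21 residual degrees of freedom) with a mean-variance trend. A filter of log2 CPM above 0 in 4 libraries removed no gene, and p-values were adjusted by Benjamini-Hochberg over 13128 genes within each of 9 contrasts. The fit was tested on simulated data. No 2 libraries were copies (smallest root mean square log2 difference 0.282).

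The 6 genes and all lists were chosen with earlier results of these data known. Genes named were the 6 members, the 3 likest genes to each, the 2 called genes of largest change per list and a set of pathway and hormone-target genes chosen by name. Same-numbered replicates of the 2 treatments correlated at -0.0308 to 0.071 on day 3, 0.11 to 0.156 on day 6 and 0.0324 to 0.167 on day 9. Only on day 6 did all exceed 0.1. Pairs of different number ran from -0.15 to 0.115 on day 3, -0.249 to 0.229 on day 6 and -0.246 to 0.243 on day 9. These ranges held all same-numbered pairs of the same day. Replicate number was tried as a block. Alternatives were other filters, pseudocounts, scalings, weights, thresholds and leaving out each library. Some listed genes are not reported here by name.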

Additional observations from a re-analysis of the deposited data

Results flagged for a closer look

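Replicate 6 of the corticosterone day 6 group was far from the other 3 libraries in 2 of the 42 gene-by-group sets checked. It was at 7.02 log2 CPM for Glul and 8.02 for Glud1, and by chance about 1 in 20 sets would show such a library. It was also low in Tsc22d3 (6.41 against 7.38 to 7.46), Per1 (6.98 against 7.33 to 7.44) and Prodh (4.92 against 5.92 to 6.05), all higher with corticosterone on that day.

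The corticosterone effect differed between days by its own test. From day 3 to day 6 it differed for Glud1 (-0.49 log2 units). From day 3 to day 9 it differed for Glul (-2.77), Glud1 (-1.28) and Asns (-0.39). From day 6 to day 9 it differed for Glul (-2.81), Glud1 (-0.79), Got2 (-0.27), Gpt2 (-0.48) and Asns (-0.51).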

How the results depend on the processing

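All 6 genes were called higher on days 3 and 6 under each other setting run and without each library in turn. The day 9 calls were less stable: 3 of 6 genes were called at an adjusted p under 0.01, when 2401 genes were called over the whole table (3736 at 0.05), and 3 to 4 were called when 1 library was left out, against 5 in the full fit. For the change in effect from day 3 to day 6, 591 genes passed at an adjusted p under 0.01 and 766 when the fit used these groups alone (1196 in the full fit), with 0 of the 6 genes in both, and 0 to 1 of 6 with 1 library left out. The Glud1 change from day 3 to day 6 did not pass with these groups alone (adjusted p = 0.136). The Glul change from day 3 to day 6 ran from -0.07 to 0.31 (without corticosterone day 6 replicate 6) with 1 library left out, below 0 without corticosterone day 6 replicate 1 (-0.06), 3 (-0.02) or 5 (-0.04) or vehicle day 6 replicate 6 (-0.07). The vehicle change of Gpt2 from day 0 to day 3 ran from -0.04 (without day 0 replicate 6) to 0.09. Under quantile scaling the vehicle falls of Got2 were -0.14, -0.26 and -0.34 on days 3, 6 and 9 and still passed. With replicate number as a block, Got1 passed for the change from day 6 to day 9 (-0.25, adjusted p = 0.0372), and no other call of the 6 genes changed. Fewer samples or genes enter some of these fits; otherwise the cause of each change was not tested. Unknown read depth limits what can be said of low genes such as Gls2.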

Other observations

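Regulators of these enzymes were read as a further list of 12 genes: 5 rose and 2 fell with corticosterone on day 3, 4 rose and 0 fell on day 6, and 0 rose and 3 fell on day 9, with medians of 0.08, 0.10 and -0.03 log2 units. On day 3, 4 rose and 2 fell without replicate 4 of the corticosterone group. In either direction 7, 4 and 3 of the 12 changed on these days, against 49.0%, 47.2% and 28.5% of all genes. The forkhead factor genes Foxo3 and Foxo1, known activators of Glul, rose by 1.32 ± 0.07 (SE; adjusted p = 3.22e-14, limma) and 1.04 ± 0.07 (3.7e-12) on day 3 and by 1.02 ± 0.07 (4.26e-12) and 0.79 ± 0.07 (5.22e-10) on day 6. On day 9 Foxo3 was at -0.15 ± 0.07 (0.106), and Foxo1 fell by 0.21 ± 0.07 (0.0297). Sirt4, whose protein restrains glutamate dehydrogenase, rose by 0.25 ± 0.09 (0.032) on day 3 and was at 0.07 ± 0.09 (0.546) and -0.06 ± 0.09 (0.675) on days 6 and 9.

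The hormone targets Tsc22d3 and Per1 also followed different courses on day 9. Tsc22d3 was at 4.42 to 4.53 log2 CPM in vehicle and 4.79 to 4.87 in corticosterone libraries, and Per1 at 5.44 to 5.71 and 5.18 to 5.35, so that the first lay above vehicle and the second below it without overlap.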
